A study of Mus musculus with 48 samples.

Results

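Kctd4, Lrrc10b and Npsr1 are 3 mouse genes whose RNA was much lower, by a similar factor, in hippocampal neurons and in whole hippocampal tissue of Setd1b conditional knockout mice. They were taken by symbol, mapped from the Ensembl identifiers of the RNA count files, as 3 of 48869 gene identifiers in those files. They were selected on the measured RNA difference between genotypes in these libraries, large and of similar size in both materials, so that difference is given below as a description, with no test. The study compared C57BL/6J mice, 4 to 6 months old, labelled Setd1b cKO (conditional knockout) or Control, in the CA (cornu ammonis) part of the hippocampus. RNA was sequenced from neurons in 3 cKO and 3 control libraries and from whole CA tissue in 6 cKO and 6 control libraries. Neuronal chromatin was precipitated for H3K4me3 and H3K4me1 in 4 cKO and 4 control libraries each, for H3K27ac in 4 cKO and 3 control libraries, and for H3K9ac in 3 cKO and 4 control libraries. The Cre line that removed Setd1b and the full genotype of the controls are not given in the sources used here. Nothing there says that the libraries of a group came from separate animals, so each p-value measures the spread between these libraries, which may be technical.

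SETD1B is an enzyme of the COMPASS family that methylates lysine 4 of histone H3. The trimethylated form, H3K4me3, lies over active promoters, and the monomethylated form, H3K4me1, over enhancers and the flanks of promoters. H3K27ac and H3K9ac are acetylated forms found at active promoters and enhancers. Kctd4 encodes a protein of the KCTD family, whose BTB domain forms multimers; several relatives are adaptors of cullin ubiquitin ligases, and others are auxiliary subunits of GABA-B receptors. Lrrc10b encodes a protein with leucine-rich repeats, a fold that commonly binds other proteins. Npsr1 encodes the G protein-coupled receptor for neuropeptide S, a peptide known for promoting arousal and reducing anxiety-like behaviour, and it signals through both Gs and Gq.

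Kctd4 (ENSMUSG00000046523) lies at chr14:75955003-75965217, within the span of Gtf2f2, a gene for a subunit of a general transcription factor. Lrrc10b (ENSMUSG00000090291) is a compact gene on the minus strand at chr19:10455371-10457447. Npsr1 (ENSMUSG00000043659) is on the plus strand at chr9:24097912-24317590 and spans 219679 bp. These positions are from RefSeq on GRCm38.p6, the build of the deposited files. RefSeq promoter sequences were matched for 2 of the 3 genes, Lrrc10b and Npsr1. They are shown because H3K4me3 lay over the promoter of Lrrc10b in every library and over that of Npsr1 in none. The bases before the start of each gene read as follows, 5′ to 3′ on the gene's strand, with CG dinucleotides in capitals.
Lrrc10b, minus strand, chr19:10457448-10457697: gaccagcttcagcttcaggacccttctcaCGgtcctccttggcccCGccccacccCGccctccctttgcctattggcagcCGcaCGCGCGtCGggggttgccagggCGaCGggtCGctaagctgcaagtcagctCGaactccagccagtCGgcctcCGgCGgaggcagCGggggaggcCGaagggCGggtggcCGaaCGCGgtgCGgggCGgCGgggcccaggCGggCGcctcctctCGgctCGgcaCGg
Npsr1, plus strand, chr9:24097768-24097911: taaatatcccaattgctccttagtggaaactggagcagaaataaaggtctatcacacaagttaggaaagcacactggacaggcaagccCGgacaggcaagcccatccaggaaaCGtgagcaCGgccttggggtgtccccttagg

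The Lrrc10b promoter is rich in CG and that of Npsr1 is not. In the 250 bases before the listed start site, Lrrc10b held 29 CG dinucleotides and was 74% G or C. Only 6.43% of the 27025 promoters of the same length in that table held as many. The same window of Npsr1, whose last bases lie inside the gene and are not printed, held 6 CG dinucleotides and was 54.8% G or C, against a median of 6 and 52% over all promoters. Searched on both strands, GGGCGG occurred 4 times in the Lrrc10b window and was not found in that of Npsr1, and 32.9% of all promoters held it. A second motif, TATAAA, held by 12.97% of promoters, was in neither window. GGGCGG overlaps CG, so these 2 counts are not separate.

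Library totals ranged from 55.7 to 69.1 M counts (M for 10 to the power 6) in neuron RNA and from 14.9 to 20.1 M in whole CA. All 3 genes passed the filter on low counts in both materials, but Npsr1 passed it in whole CA only through its control libraries. Over the whole Setd1b gene the counts went against the labels. Setd1b averaged 54.2 ± 9.74 CPM (counts per M counts of the library; SD, n = 3) in control and 64.9 ± 6.38 CPM (SD, n = 3) in cKO neurons, with a log2 fold change of 0.25 by edgeR's quasi-likelihood test (SE 0.13, adjusted p = 0.361). In whole CA it averaged 39.3 ± 8.56 and 59.6 ± 6.27 CPM (SD, n = 6 each), or 0.59 on the log2 scale (SE 0.11, edgeR adjusted p = 0.00415). The files give no counts per exon, so whether the deleted exons are absent was not analysed here, and the genotypes below are those of the libraries labelled cKO and control.

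Kctd4 stood far below its control level in the libraries labelled cKO, in both materials. The control neuron libraries had 45.3, 70.8 and 53.6 CPM and the cKO neuron libraries 9.74, 10.3 and 8.97 CPM. The lowest control neuron library was 4.38 times the highest cKO one, so the groups did not overlap. In whole CA the controls ran from 59.9 to 70.9 CPM with a median of 67.8, and the cKO libraries from 11.5 to 14.98 CPM with a median of 14.4. Here too the groups were far apart, by 4.00 times at their nearest. The means were 56.6 ± 13.01 and 9.69 ± 0.690 CPM in neurons (SD, n = 3 each), a log2 fold change of −2.56 (SE 0.16), which left 17.1% of the control level. In whole CA they were 66.4 ± 3.90 and 13.9 ± 1.27 CPM (SD, n = 6 each), a log2 fold change of −2.27 (SE 0.08), which left 20.9%.

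Lrrc10b was lower by nearly the same factor, starting from a lower CPM in neurons than in whole CA. Control neurons had 23.5, 20.2 and 16.8 CPM, and cKO neurons had 3.66, 3.197 and 3.55 CPM. The 3 cKO values lay close together, and the lowest control was 4.60 times the highest of them. Whole CA controls ran from 38.9 to 46.6 CPM around a median of 42.6, and cKO libraries from 6.51 to 13.2 CPM around a median of 9.65. The cKO whole CA libraries were the more scattered group, with a coefficient of variation of 24.7% against 6.32% in controls. Means were 20.2 ± 3.34 and 3.47 ± 0.243 CPM in neurons (SD, n = 3 each), a log2 fold change of −2.55 (SE 0.14) that left 17.2% of control. Whole CA means were 42.5 ± 2.69 and 9.75 ± 2.41 CPM (SD, n = 6 each), a log2 fold change of −2.14 (SE 0.12) that left 22.9%.

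Npsr1, the neuropeptide S receptor, was thinly counted and was lower by a similar factor. Control neurons held 2.77, 4.99 and 3.55 CPM, from 168, 310 and 245 counts. In cKO neurons the values were 0.673, 0.835 and 0.556 CPM, from 45, 53 and 31 counts. In whole CA the gene was close to the limit that a count of 0 allows in the cKO libraries, which held 1 to 7 counts each (0.0579 to 0.376 CPM, median 0.310). The whole CA controls held 15 to 39 counts (0.844 to 2.27 CPM, median 1.23). No cKO library reached a control library in either material, although the distance in whole CA was only 2.25 times at its narrowest. Neuron means of 3.77 ± 1.13 and 0.688 ± 0.140 CPM (SD, n = 3 each) gave a log2 fold change of −2.46 (SE 0.25), and whole CA means of 1.39 ± 0.543 and 0.275 ± 0.114 CPM (SD, n = 6 each) gave −2.33 (SE 0.34). The cKO libraries held 18.2% of the control level in neurons and 19.8% in whole CA.

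**Figure D1:**
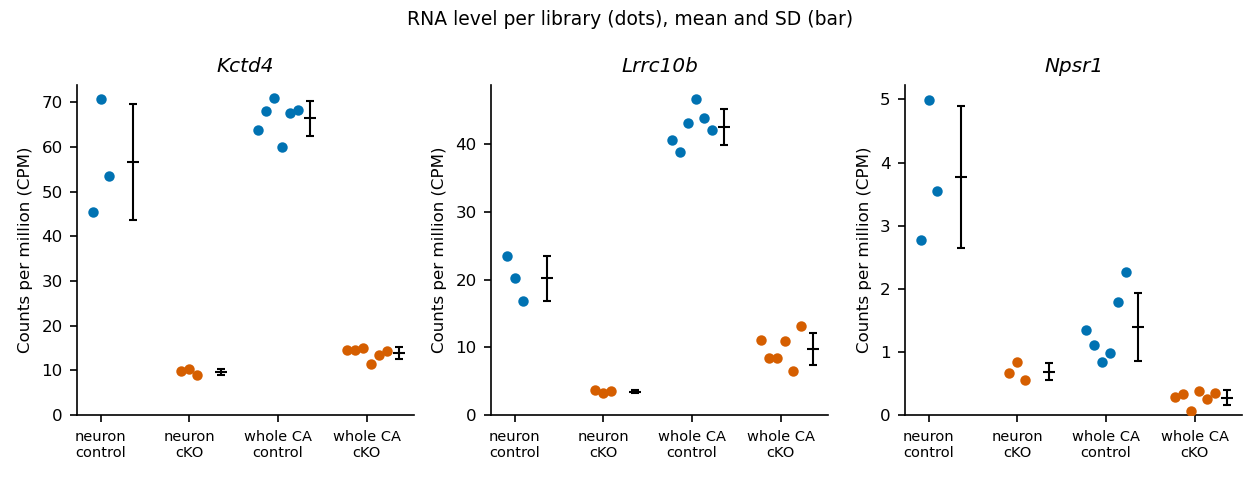
RNA level of Kctd4, Lrrc10b and Npsr1 in CPM (vertical axis, linear, from 0), 1 dot per library, with the mean and SD of each group as a bar; blue is control and orange is cKO. For every gene the orange dots lie below all blue dots of the same material, with 3.47 against 20.2 CPM on average for Lrrc10b in neurons.

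The rule that picked the genes set no numeric limit. Of the 14967 genes tested in both materials, 7 had a log2 fold change of −2 or lower in both: these 3 together with Mylk3, Gm29771, 9430053O09Rik and 9430092D12Rik. At −1 or lower in both there were 59. Across all tested genes, 2% were called lower and 0.744% higher in neuron RNA, and 2.79% lower and 1.38% higher in whole CA (edgeR, adjusted p under 0.05). Both materials called 1.17% lower. Every cKO library lay below every control library for 11.1% of genes in the neuron data and for 1.78% in the whole CA data. These shares are background for the chosen genes, and nothing is read from them because the choice used the same contrast.

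The drop was of similar size in both materials, as the choice of the genes required. The neuron log2 fold change minus that of whole CA, from 1 model of all 18 libraries, was −0.28 (SE 0.16) for Kctd4, −0.40 (SE 0.20) for Lrrc10b and −0.10 (SE 0.51) for Npsr1. Over all genes, 0.16% were called for such a difference. Lane numbers of the whole CA libraries, which appear only in the names of the deposited files and not in the sample labels, put replicates 1 to 3 in 1 lane and 4 to 6 in the other. Within the first lane the log2 fold changes were −2.19, −2.12 and −2.24 for Kctd4, Lrrc10b and Npsr1, and within the second −2.36, −2.17 and −2.41. In bulk RNA, fewer cells of a type that express a gene and less RNA per cell cannot be told apart.

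Once the group means were removed, the 3 genes varied weakly together over all libraries. The correlation over 18 libraries was −0.21 for Kctd4 with Lrrc10b, 0.03 for Kctd4 with Npsr1 and 0.13 for Lrrc10b with Npsr1, as a description of libraries that share depth and preparation between genes. For Kctd4 with Npsr1 the correlation was 0.96 within the 6 neuron libraries and −0.31 in the 12 whole CA libraries. The share of gene pairs that reach such a value in 6 libraries was not computed, so nothing is read from it. Npsr1 had the widest spread, with a pooled SD of 0.34 on the log2 CPM scale in neurons and 0.61 in whole CA. Kctd4 had 0.23 and 0.13, and Lrrc10b 0.19 and 0.25.

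The control libraries alone show how each gene stands in neurons against whole CA, a contrast the choice did not use. Npsr1 was higher in neurons, Lrrc10b was lower, and Kctd4 was slightly lower. The ratios given here are of mean CPM, while the log2 values are edgeR's after TMM scaling, so the 2 are not the same quantity. For Npsr1 the CPM ratio was 2.71 and the TMM-scaled log2 difference 1.25 (SE 0.25, edgeR adjusted p = 7.62e-05), and the control neuron libraries all lay above the control whole CA libraries. Lrrc10b had 47.5% of its mean whole CA level in CPM and a TMM-scaled log2 difference of −1.25 (SE 0.14, adjusted p = 1.51e-08), again with no overlap. The share of genes whose control libraries separate in this way was not computed, so nothing is read from the separation. Kctd4 had 85.2% in CPM and a TMM-scaled log2 difference of −0.41 (SE 0.11, adjusted p = 0.00119), but its neuron library with 70.8 CPM reached the whole CA range. The Kctd4 difference stayed called under each alternative, but was −0.23 (adjusted p = 0.0455) with library size as the only scaling and −0.28 (adjusted p = 0.0216) without control neuron replicate 1. The 2 materials differ in nearly every respect: 39.8% of 17523 tested genes were called lower and 43.2% higher in control neurons, so a call in this contrast is ordinary. The 2 preparations also differ in depth and sequencing, and their part in these differences cannot be told apart from the material.

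H3K4me3 was much shorter over Kctd4 and Lrrc10b in cKO neurons. For each mark, peaks were merged over libraries into regions, and the bases covered by peaks in each library were compared; the windows span each gene and 5000 bp before its start, on both sides for Kctd4. The longest H3K4me3 region at Kctd4, chr14:75961951-75968335, starts inside the gene and runs past its higher-coordinate end. Control libraries had 6082, 6322, 6314 and 6199 bp covered, each by a single unbroken peak, and cKO libraries had 1956, 2623, 3048 and 2334 bp in 3 or 4 pieces. Every cKO value was under every control value, as for 15.2% of all H3K4me3 regions. That share among regions of similar length was not computed. The means were 6229 ± 113 bp and 2490.3 ± 461 bp (SD, n = 4 each), which left 39.98%, a log2 difference of −1.31 (SE 0.13, limma adjusted p = 0.00069).

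H3K4me3 at Lrrc10b was shorter by a similar share. Its longest region, chr19:10453653-10458349, covers the whole gene and its promoter. In controls the covered lengths were 4186, 4277, 4349 and 4395 bp, and in cKO neurons 1497, 1829, 1719 and 2000 bp, again without overlap. The means of 4302 ± 91.2 bp and 1761 ± 211 bp (SD, n = 4 each) left 40.9%, a log2 difference of −1.25 (SE 0.09, limma adjusted p = 0.000159). Shorter H3K4me3 regions were common in these libraries, with 9.36% of 44667 regions called shorter and 1.44% longer. Among the 7776 regions with a mean covered length of at least 2000 bp, 33.3% were called shorter. Only 7.41% of them were longer in cKO neurons by any amount, beside 48.7% of all regions. Of those long regions, 33 had a log2 difference as low as that at Kctd4 or lower (0.424%), and 48 as low as that at Lrrc10b or lower (0.617%).

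The remaining H3K4me3 can be placed relative to each gene. At Kctd4 the cKO libraries kept 1987 ± 177 bp of the part inside the gene (SD, n = 4), against 3233 ± 29.02 bp in controls. Beyond the gene's higher-coordinate end they kept 503 ± 286 bp, against 2997 ± 116 bp. At Lrrc10b the 902 bp of the region upstream of the gene kept 696 ± 173 bp in cKO neurons, against 803 ± 21.1 bp in controls. Inside the gene 1066 ± 65.2 bp remained of 2013 ± 13.2 bp. Past the downstream end of Lrrc10b, controls had 1340 to 1616 bp covered and none of the 4 cKO libraries had a peak. The region extends past that end only through control peaks, which fixed the direction there. These splits by gene boundary were made after the peaks had been seen and were not tested.

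The authors' peak heights were lower as well. The highest peak in the Kctd4 region had a pileup of 135, 132, 149 and 145 in controls and of 56, 67, 69 and 71 in cKO libraries. At Lrrc10b the pileups were 107, 127, 139 and 119 in controls and 33, 53, 57 and 65 in cKO libraries. At both genes every cKO pileup was below every control pileup. How many H3K4me3 regions separate in this way by pileup was not computed, so nothing is read from it. Pileups are the peak caller's own values and were not tested. Peaks of each genotype were called against 1 input library, and differences between the 2 inputs cannot be told apart from genotype in any of the 4 marks.

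**Figure D2:**
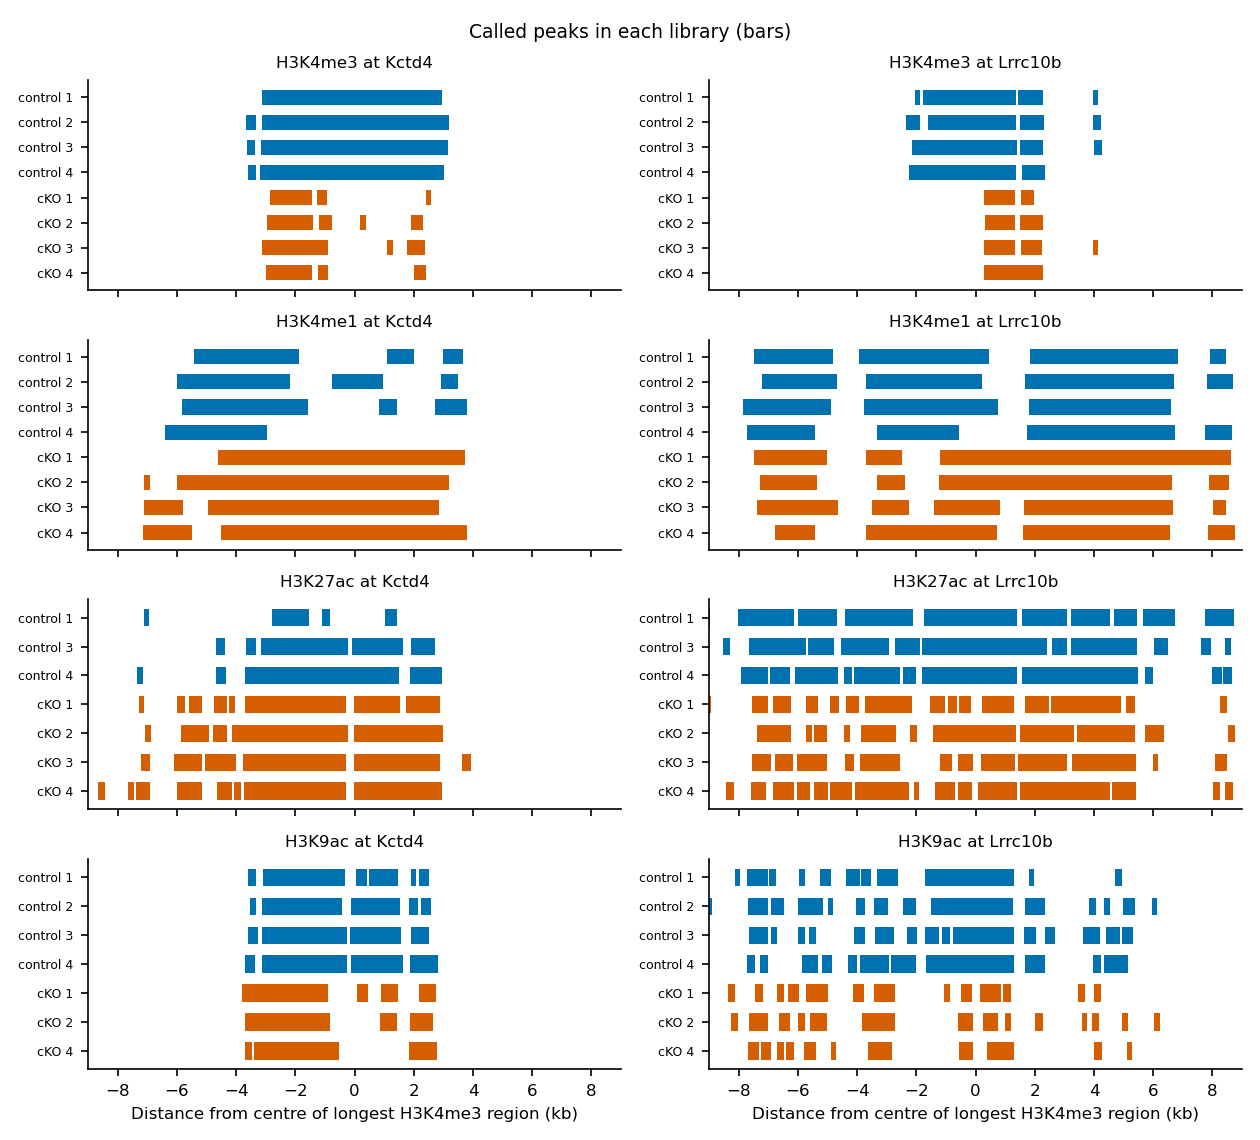
Called peaks of 4 histone marks around Kctd4 (left) and Lrrc10b (right), 1 row of bars per library, against distance in kb from the centre of the longest H3K4me3 region; blue is control and orange is cKO. Control H3K4me3 forms 1 unbroken bar at Kctd4 while the cKO bars are short pieces, and H3K4me1 bars at Kctd4 are longer in cKO.

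H3K4me1 at Kctd4 covered more bases in every cKO library, without passing the test. Its longest region, chr14:75957989-75968933, had 5151, 6129, 5953 and 3440 bp covered in controls and 8341, 9394, 9130 and 9938 bp in cKO neurons. All cKO values exceeded all control values, as they did for 6.1% of 137483 H3K4me1 regions. The log2 difference was 0.85 (SE 0.21, limma adjusted p = 0.137). None of the 3 H3K4me1 regions at Kctd4, the 1 at Lrrc10b or the 14 at Npsr1 was called by limma, with an unadjusted p under 0.05 for 2, 0 and 2 of them, while 0.771% of all regions were called longer and 0.719% shorter. Within the stretch that H3K4me3 covers in controls, H3K4me1 peaks took up 233 to 3025 bp in control libraries and 6057 to 6385 bp in cKO libraries, a split made after the peaks had been seen. Lrrc10b had H3K4me1 over a long region, chr19:10452045-10464776, with a mean of 9449 ± 586 bp in controls and 9939 ± 931 bp in cKO neurons (SD, n = 4 each; log2 difference 0.07, SE 0.13, limma adjusted p = 0.835). Inside the Lrrc10b gene, however, H3K4me1 covered 65 to 1399 bp in controls and 1356 to 2077 bp in cKO libraries, which overlap only slightly. Past the downstream end of Lrrc10b, within the H3K4me3 region, it went the other way, from 1718 bp in each control to 945 ± 532 bp in cKO libraries (SD, n = 4), also a split made after the peaks had been seen and not tested. The peak over the promoter window of Lrrc10b was present in 1 of 4 control and 4 of 4 cKO libraries. The share of promoters with such a split was not computed.

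H3K27ac peaks lay at 2 places beside Kctd4 in each cKO library and in no control library. They were chr14:75951003-75951702 and chr14:75953788-75954461, both beyond the lower-coordinate end of the gene. At the first the cKO libraries had 280, 439, 635 and 312 bp covered, and at the second 185, 510, 422 and 530 bp, with low pileups of 12.02 to 18.49. Both places entered the table of regions only through their cKO peaks, which fixed the direction, so they are described with no test. Between them, chr14:75952089-75953583 had 1079, 1163, 1317 and 1239 bp covered in cKO libraries, and 444 bp in 1 of 3 control libraries. Its cKO pileups were 18.77 to 27.6. It too entered through its cKO peaks, so it is given as values only. The share of regions with a peak in each cKO library and in no control library was not computed. Of all 113058 H3K27ac regions, 1.23% were called longer and 1.38% shorter. The longest H3K27ac region at Kctd4, chr14:75959044-75968141, had 1975, 6129 and 6604 bp in controls and 7508 to 8414 bp in cKO libraries, a log2 difference of 0.88 (SE 0.42, limma adjusted p = 0.441). All cKO values there were above all controls, as for 8.02% of H3K27ac regions, and control replicate 1 was the shortest by far: without it the log2 difference was 0.34.

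Lrrc10b H3K27ac covered slightly fewer bases in cKO libraries, a difference that did not pass the test. Controls had 6767, 6960 and 7083 bp covered at chr19:10454193-10461472 and cKO libraries 5781, 6541, 5905 and 6321 bp, all below the controls, as for 5.7% of H3K27ac regions. The log2 difference was −0.18 (SE 0.13, limma adjusted p = 0.638). Its highest pileups were 69.2, 42.0 and 52.8 in controls and 30.6 to 34.7 in cKO libraries, which do not overlap. The share of H3K27ac regions with such pileups was not computed, so nothing is read from this.

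H3K9ac was called shorter at Lrrc10b, over a region that runs from inside the gene past its downstream end, and was not called at Kctd4. The Lrrc10b region chr19:10454288-10457304 had 3012, 2768, 2806 and 2960 bp in controls and 1563, 1212 and 1410 bp in cKO neurons. Means of 2887 ± 118 bp (SD, n = 4) and 1395 ± 176 bp (SD, n = 3) left 48.3%, a log2 difference of −1.004 (SE 0.14, limma adjusted p = 0.0137). Inside the gene H3K9ac covered 1921 ± 14.5 bp in controls and 1318 ± 99.7 bp in cKO libraries. Past the downstream end, within the H3K4me3 region, it covered 1217 ± 124 and 77.3 ± 134 bp. This split was made after the peaks had been seen and was not tested. Of 88753 H3K9ac regions, 0.931% were called shorter and 1.79% longer, and of the 5382 with a mean covered length of at least 2000 bp, 0.65% were called shorter. The call rested on all 3 cKO libraries: the adjusted p was 0.0623 without cKO replicate 1, 0.0964 without cKO replicate 2 and 0.131 without cKO replicate 4. Joining peaks within 1000 bp into 1 region also ended it, with a log2 difference of −0.60 (adjusted p = 0.176). Another Lrrc10b region, chr19:10457621-10458681, overlaps the promoter window and had a peak in 4 of 4 control and 1 of 3 cKO libraries. It covered 580 ± 258 bp in controls (SD, n = 4) and 80.7 ± 140 bp in cKO libraries (SD, n = 3), and was not called (limma adjusted p = 0.226). At Kctd4 the region chr14:75961321-75964889 had 3097 ± 157 bp in controls (SD, n = 4) and 2978 ± 112 bp in cKO libraries (SD, n = 3), a log2 difference of −0.05 (SE 0.13, limma adjusted p = 0.897). A second Kctd4 region, chr14:75964992-75966786, lay below all controls in the 3 cKO libraries, as for 5.66% of regions, with 512 ± 479 (SD, n = 3) against 1628 ± 201 bp (SD, n = 4), and missed the threshold (limma adjusted p = 0.314). Within the longest H3K4me3 region at Kctd4, H3K9ac covered 5129 ± 403 bp in controls (SD, n = 4) and 3721 ± 108 bp in cKO libraries (SD, n = 3). That split was also made after the peaks had been seen and was not tested.

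**Figure D3:**
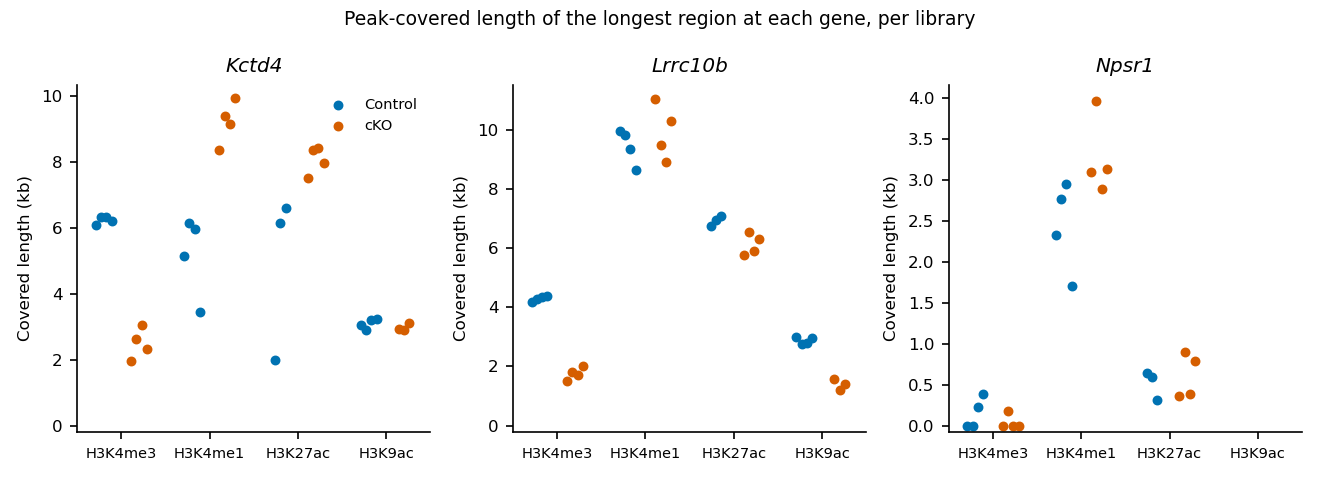
Peak-covered length in kb (vertical axis, linear) of the longest region of each mark at Kctd4, Lrrc10b and Npsr1, 1 dot per library; blue is control and orange is cKO. H3K4me3 dots separate by genotype at Kctd4 and Lrrc10b and sit near 0 at Npsr1, where no H3K9ac region was found.

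Npsr1 had no H3K4me3 peak at its promoter, unlike most genes tested in these neurons. No control and no cKO library had an H3K4me3 peak over its promoter window, from 250 bp before to 50 bp after the listed start. Of 12850 genes tested in neuron RNA with a promoter in the table, 86.2% had an H3K4me3 peak there in at least 1 control library and 84.2% in all 4. The share among genes as thinly counted as Npsr1 was not computed. The same window held no H3K4me1 or H3K27ac peak in any library, and an H3K9ac peak in 1 of 3 cKO libraries and no control. Peaks were called at a q cutoff of 0.1, so a mark spread below that cutoff, or at a start site outside this window, would not be seen. The only H3K4me3 region in the gene, chr9:24186382-24186787, was 406 bp long and had a peak in 2 of 4 control and 1 of 4 cKO libraries, with pileups of 11 to 15 (limma adjusted p = 0.625). Marks of other kinds were scattered through the long gene. Of 14 H3K4me1 regions, 12 were longer on average in cKO neurons, beside 65.0% of all H3K4me1 regions, and limma called none (2 had an unadjusted p under 0.05, and the smallest adjusted p was 0.214). Of 7 H3K27ac regions, 6 were longer in cKO neurons, beside 54.99% of all regions, and limma called none (1 with an unadjusted p under 0.05, smallest adjusted p 0.308).

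No other KCTD gene had a difference of the size seen at Kctd4. Of 22 other family members tested in neurons, edgeR called 1 lower and none higher, beside 2% and 0.744% of all genes, and DESeq2 called 1. It was Kctd15, at 16.1 ± 1.27 CPM in control and 10.998 ± 0.373 CPM in cKO neurons (SD, n = 3 each), a fall by 0.56 on the log2 scale (SE 0.09, edgeR adjusted p = 0.0138). In whole CA neither edgeR nor DESeq2 called any of the 22, and 4 had an unadjusted p under 0.05, beside 2.79% of all genes called lower and 1.38% higher there. The family median log2 fold change was −0.04 in neurons and −0.02 in whole CA, beside 0.02 and −0.00 over all genes. Of 4 partners of KCTD proteins, which include the cullin scaffold and GABA-B receptor subunits, none was called in either material by edgeR or DESeq2, and none had an unadjusted p under 0.05. Apart from Kctd4 itself, log2 fold changes in the family ran from −0.56 to 0.69 in neurons and from −0.57 to 0.28 in whole CA.

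The genes named LRRC, which share the repeat and not a common function, gave few calls too. Among 52 tested in neurons and 46 in whole CA besides Lrrc10b, edgeR called 1 gene in each, Lrrc4c both times, which encodes a synaptic adhesion protein. DESeq2 called 1 and 2. Lrrc4c went from 93.5 ± 10.4 to 63.8 ± 7.27 CPM in neurons (SD, n = 3 each), a log2 fold change of −0.57 (SE 0.11, adjusted p = 0.0291). It went from 120.5 ± 10.01 to 85.5 ± 5.08 CPM in whole CA (SD, n = 6 each), a log2 fold change of −0.51 (SE 0.07, adjusted p = 0.000127). The median over the other LRRC genes was 0.03 in neurons and −0.02 in whole CA.

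Around Npsr1, the oxytocin receptor was lower in both materials, and few downstream signalling genes were called. Nps, the gene for the ligand, was too low to be tested in either material. Oxtr, the oxytocin receptor, fell from 10.02 ± 1.07 to 6.76 ± 0.815 CPM in neurons (SD, n = 3 each), a change of −0.58 on the log2 scale (SE 0.12, edgeR adjusted p = 0.0375). In whole CA Oxtr fell from 15.7 ± 1.51 to 7.51 ± 1.42 CPM (SD, n = 6 each), a change of −1.08 (SE 0.12, adjusted p = 9e-06). Avpr1b, a vasopressin receptor, had 1.57 ± 0.544 CPM in control and 0.388 ± 0.165 CPM in cKO whole CA (SD, n = 6 each). It passed the filter on low counts there through its control libraries, so its difference is given as values only. In neurons Avpr1b had a log2 fold change of −1.28 (SE 0.39), which did not pass (adjusted p = 0.141). The list held 5 receptors (Avpr1a, Avpr1b, Avpr2, Oxtr and Gnrhr), of which edgeR called 1 of 4 tested in neurons, beside 2% of all genes called lower.

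Of 32 genes that carry Gs and Gq signals, edgeR called 1 lower in neurons, and 1 lower and 2 higher in whole CA. Of all genes, 2% were called lower and 0.744% higher in neurons, and 2.79% and 1.38% in whole CA. The share called higher in whole CA was thus above that of all genes, though it rests on 2 genes. An unadjusted p under 0.05 was found for 5 of the 32 in neurons and 10 in whole CA. Itpr2, a calcium release channel of the endoplasmic reticulum, fell in neurons from 10.2 ± 0.780 to 5.45 ± 0.390 CPM (SD, n = 3 each), a log2 fold change of −0.91 (SE 0.11, adjusted p = 0.00199). In whole CA, Prkca fell by 0.28 on the log2 scale (SE 0.06, adjusted p = 0.00775). Itpr1 rose by 0.19 (SE 0.05, adjusted p = 0.042). Prkca encodes a protein kinase C isoform, and Itpr1 a relative of Itpr2. The list's median log2 fold change was 0.02 in neurons and 0.01 in whole CA.

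**Figure D4:**
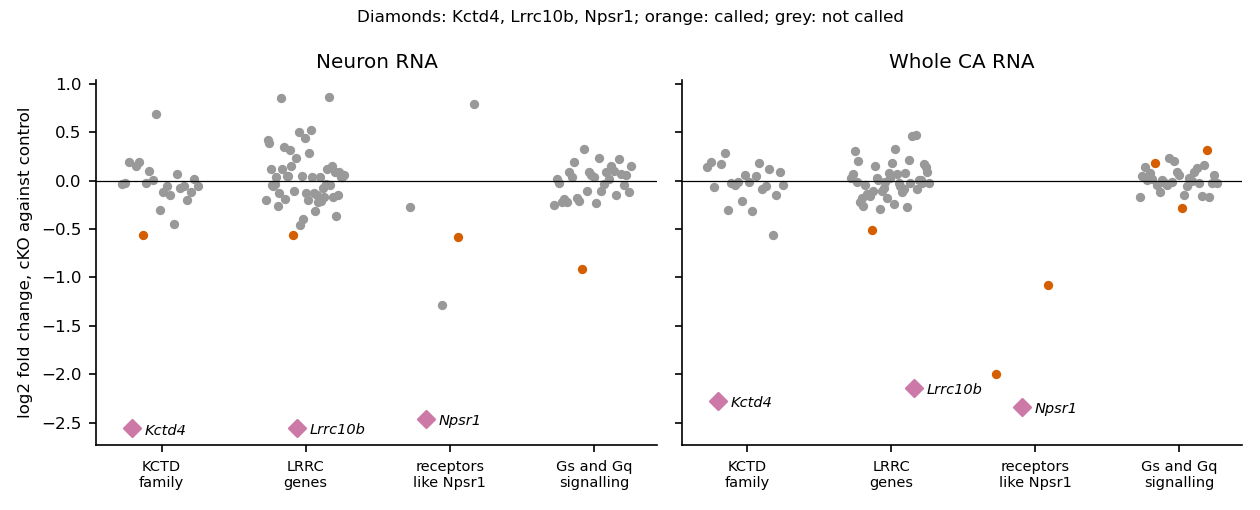
Log2 fold change, cKO against control (vertical axis), of each tested gene in the KCTD family, the LRRC genes, receptors like Npsr1 and Gs and Gq signalling genes, in neuron RNA (left) and whole CA RNA (right); diamonds are Kctd4, Lrrc10b and Npsr1, orange dots other called genes and grey dots genes not called. The diamonds lie below −2 in both panels, while the other KCTD genes stay between −0.57 and 0.69.

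No neighbouring gene was called lower. The 2 nearest protein-coding genes on each side were Slc25a30, Tpt1, Gpalpp1 and Nufip1 for Kctd4, Dagla, Syt7, Ppp1r32 and Sdhaf2 for Lrrc10b, and Bbs9, Bmper, Dpy19l1 and Dpy19l2 for Npsr1. All 12 were tested in both materials. Neither edgeR nor DESeq2 called any of them, and 2 in neurons and 1 in whole CA had an unadjusted p under 0.05. Syt7, a synaptic calcium sensor 2.19 kb from Lrrc10b, had log2 fold changes of −0.17 (SE 0.11) in neurons and 0.01 (SE 0.05) in whole CA. Gtf2f2, which contains Kctd4 and was added after its values were seen, was called higher in whole CA. It averaged 14.2 ± 1.67 and 18.1 ± 1.10 CPM in whole CA (SD, n = 6 each), a log2 difference of 0.34 (SE 0.09, edgeR adjusted p = 0.0344), and had 0.39 (SE 0.11, adjusted p = 0.113) in neurons. Whether the counting used strand is not given in the sources used here, so reads from the span shared by Kctd4 and Gtf2f2 may have been assigned to either. H3K4me3 over the Gtf2f2 promoter covered 1670 ± 52.6 bp in controls and 1834 ± 74.0 bp in cKO neurons (SD, n = 4 each; limma adjusted p = 0.209). Besides Gtf2f2, only Tpt1, Gpalpp1, Syt7, Ppp1r32, Sdhaf2 and Dpy19l1 were looked up. Ppp1r32 had no matched H3K4me3 region. Gpalpp1 and Syt7 matched no region of any mark. Whether a promoter was listed for these 2 genes was not checked, so nothing is read from their absence. H3K4me3 was called shorter at the promoters of Tpt1 (3419 to 2483 bp, adjusted p = 0.00135) and Dpy19l1 (2457 to 1746 bp, adjusted p = 0.017), whose RNA did not pass the test. It was not called at Sdhaf2 (adjusted p = 0.0721) or in a second Dpy19l1 region (adjusted p = 0.746). Of all H3K4me3 regions 9.36% were called shorter, and 33.3% of those of at least 2000 bp.

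Genes with the most similar pattern over all 18 libraries, by correlation of log2 CPM centred on the mean of each material, were also lower in cKO, and all were called by edgeR in both materials except Adamts8, called in whole CA only. For Kctd4 they were Lgi1 (r = 0.99), St18 and Neurod6, with neuron log2 fold changes of −1.41, −1.44 and −2.24. For Lrrc10b the nearest were Sstr4 (r = 0.98), a somatostatin receptor, then Scn3b and Il16, with −1.97, −0.67 and −1.19. For Npsr1 the nearest were Rxfp1 (r = 0.93), a relaxin receptor, Fxyd7 and Adamts8, with −1.37, −1.24 and −0.42. The genotype difference is part of these correlations, and 87 of 14966 genes exceeded 0.9 for Kctd4, 71 for Lrrc10b and 15 for Npsr1. In the 9 control libraries alone the nearest genes were others: Rp2, Itm2b and Yipf4 for Kctd4, Naa25, Scarb1 and Adcy9 for Lrrc10b, and Tox, Rassf3 and Brinp3 for Npsr1. Of these 9, Brinp3 alone was called between genotypes, in whole CA (log2 fold change −0.36, edgeR adjusted p = 0.0194).

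Markers of other cells in the dissected tissue were measured beside the 3 genes. Of the dentate granule cell markers, 4 of 8 were called lower in neurons (C1ql2, Dsp, Lct and Tdo2) and 3 of 8 in whole CA (Dsp, Lct and Stxbp6), beside 2% and 2.79% of all genes. Their summed level ran from 286 to 324 CPM in control and from 211 to 260.0 CPM in cKO neurons. In whole CA it ran from 141 to 188 CPM and from 81.4 to 157 CPM. Prox1, the defining transcription factor of those cells, stood at 74.9 and 74.5 CPM in control and cKO neurons and at 42.5 and 33.8 CPM in whole CA (adjusted p = 0.93 and 0.145 by edgeR), and none of the 8 markers was at 0. CA1 markers summed to 778 to 824 CPM in control and 683 to 740 CPM in cKO neurons, with 1 of 5 called lower (Wfs1). In whole CA they summed to 847 to 931 and 867 to 960.3 CPM, and Wfs1 was again the 1 of 5 called lower (log2 fold change −0.43, edgeR adjusted p = 0.0122). CA2 sums ran from 165 to 185 CPM in control and from 146 to 155 CPM in cKO neurons (1 of 5 called), and from 205 to 233 and 158 to 199 CPM in whole CA (3 of 5 called). CA3 sums ran from 528 to 608 and 473 to 512 CPM in neurons, with none of 5 called by edgeR, but in whole CA Iyd (log2 fold change −1.42, adjusted p = 3.74e-05) and Grik4 (−0.42, adjusted p = 0.000132) were called lower. In neurons subiculum sums ran from 129 to 140 and 91.0 to 113 CPM, with 1 of 4 called (Ly6g6e). Whole CA subiculum sums overlapped, at 71.3 to 107.9 and 79.1 to 108.1 CPM, and Ly6g6e was called lower there too (−1.40, edgeR adjusted p = 2.36e-05). Of the choroid plexus markers, Kl was called lower in both materials (27.5 to 13.2 CPM in neurons and 26.99 to 13.3 CPM in whole CA). The defining choroid plexus marker Ttr was near 0 in neurons (0.104 and 0.106 CPM), as was Folr1, and neither was called in whole CA. Interneuron sums overlapped between genotypes in both materials, with none of 7 markers called by edgeR. Pan-neuronal sums overlapped too, at 3233 to 3798 and 3569 to 4088 CPM in neurons, and in whole CA Map2 was called lower (−0.32, adjusted p = 0.0156). The endothelial marker Kdr was called lower in both materials, as 1 of 3 endothelial markers tested in neurons and 1 of 4 in whole CA. Endothelial sums were 6.44 to 7.15 and 4.65 to 5.27 CPM in neurons, most of it Kdr itself (means of 5.72 and 4.05 CPM). The astrocyte marker Aqp4 and the microglial marker Cx3cr1 were called lower in whole CA, each as 1 of 5. Astrocyte markers summed to 25.3 to 31.8 CPM in the neuron libraries and to 1365 to 1694 CPM in whole CA, the lower level being in the material labelled neuron. The part of these shifts in the differences of Kctd4, Lrrc10b and Npsr1 was not tested.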

How the data were processed

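RNA was measured in 18 libraries and histone marks in 30. The deposited RNA files hold counts per Ensembl gene, and the aligner, counter and strand setting are not given in the sources used here. SAMtools and MACS2 with mm10/GRCm38 are named in the submitters' processing notes. Peaks were called per library by the authors, with MACS 2.1.1.20160309 for H3K4me3 and 2.1.0.20140616 for the other marks at a q cutoff of 0.1, per the file headers. The authors' −log10 q, pileup (signal) and fold enrichment (ratio) per peak are the peak caller's own values.

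Counts were tested with edgeR 4.0.16 (R 4.3.3): TMM factors, filterByExpr and a quasi-likelihood test in neuron and whole CA libraries separately, and in 1 model of all 18 for contrasts across materials. DESeq2 1.42.0 was an alternative. Peaks were merged with GenomicRanges 1.54.1 into regions with a peak in at least 3 libraries, and log2(covered bases + 100) was tested with limma 3.58.1. P-values are two-sided and adjusted by Benjamini-Hochberg over all features, with calls under 0.05. Scripts were tested on simulated data. The 5 rows of the whole CA files that name no gene held 0 counts. CPM is a gene's count divided by its library's total counts in M (10 to the power 6). A count of 0 allows up to 3 counts, or 0.0434 to 0.202 CPM by library, for counting error only.

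The genes and lists were chosen with earlier results of these data known. Named genes were the 3 genes, Setd1b, listed genes called in either material (at most 6 each), the 2 nearest neighbours on each side and the 3 best-correlated genes over all and over control libraries. A called gene of the signalling list is not reported here.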

Additional observations from a re-analysis of the deposited data

Results flagged for a closer look

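In 1 of 25 groups of libraries examined, a library lay far from the others of its group. The H3K4me3 region inside Npsr1 had 177 bp covered in cKO neuron replicate 2 and no peak in the other 3 cKO libraries. Chance alone flags about 1 in 20 groups of roughly normal values. That rate does not apply to this region, since a peak in only 1 of 4 libraries is always flagged.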

How the results depend on the processing

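The genotype log2 fold changes of Kctd4, Lrrc10b and Npsr1 kept their direction under each of 12 alternatives in neurons and 20 in whole CA (other normalizations and filters, DESeq2, lanes, left-out libraries and the block). In neurons they ranged from −2.70 to −2.36, from −2.68 to −2.43 and from −2.64 to −2.21. The difference between materials for Npsr1 ranged from −0.30 to 0.15. Genes called in neuron RNA numbered 539, against 840 with DESeq2 and 207 to 482 with 1 library left out (207, 259, 311 and 268 without cKO 1, cKO 2, control 2 and control 3). In whole CA 640 became 207 and 224 within each lane, and 467 to 669 with 1 library left out. The difference between materials gave 28 genes, 69 without a filter, 75 with DESeq2 and 18 to 32 with 1 library left out (18 without cKO neuron 2 or control neuron 1).

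H3K4me3 at Kctd4 and Lrrc10b stayed called throughout, with adjusted p up to 0.0149 and 0.00874. The Npsr1 H3K4me3 region gave no value under 5 settings that removed it. H3K4me1 at Lrrc10b became −0.0033 when peaks within 1000 bp were merged, and H3K9ac at Kctd4 became 0.0071 with −log10 q of at least 5. H3K27ac at Npsr1 ranged from −0.10 to 0.36 with 1 library left out, negative without cKO 2 (−0.0214) or control 4. H3K9ac at Lrrc10b was −0.60 with merging and −1.08 to −0.91 with 1 library left out.

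Called regions went from 2048 to 698 for H3K4me1, 2947 to 1358 for H3K27ac and 2414 to 1419 for H3K9ac with −log10 q of at least 5. Requiring a peak in each library gave 1114, 80 and 156. For H3K27ac and H3K9ac, merging gave 1316 and 1223 and the larger offset 518 and 713. With 1 library left out, H3K4me1 gave 2283 to 3095 (highest without cKO 3), H3K27ac 1151 to 4249 (1751 and 1151 without control 1 and control 3) and H3K9ac 430 to 3722 (710, 652 and 430 without cKO 1, 2 and 4, and 3637, 3628 and 3722 without control 1, 2 and 4). The causes of these moves were not tested.

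Deviations of same-numbered libraries correlated from −0.06 to 0.29 in neurons, from −0.06 to 0.20 in whole CA, where 4 of 6 pairs exceeded 0.1, and from −0.04 to 0.05 in chromatin. Since not every pair exceeded 0.1 in any of these, the numbers were not taken to pair the libraries. With the replicate number as a block, neuron RNA gave 327 genes, whole CA 839, H3K4me3 2501 regions and H3K4me1 680. In the same block, limma called 0 regions for H3K27ac and 0 for H3K9ac (11269 and 8822 regions had an unadjusted p under 0.05), H3K27ac at Npsr1 was −0.0214 and H3K9ac at Lrrc10b −1.02 (adjusted p = 0.16). In neither RNA material did every library correlate best with its own number.

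Depth limits Npsr1 in whole CA, with 1 to 7 counts in cKO libraries. Covered length depends on the caller's cutoff, so a lower peak can appear as a shorter one.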
